A study of Mus musculus with 13 samples.

Results

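The genes described are 10 members of the amino acid response driven by the transcription factor ATF4, followed through mouse kidneys that lack Pkd1 or Pkd2 in their tubules and through a mouse collecting duct cell line. They were listed by gene symbol and not by a threshold on any value, with earlier results of these data known: the enzymes Asns, Psat1, Phgdh and Shmt2, the transporter subunits Slc7a5 and Slc3a2, the effectors Chac1, Trib3 and Ddit3, and Atf4 itself. All 10 were among the 28183 genes of the kidney table, and 9 passed a filter on low values (at least 1 in at least 2 of 8 libraries). Chac1 reached 1 in 1 library only and has no main test. The cell table lists 2016 genes selected by the authors, and 8 of the 10 are among them, without Slc7a5 and Ddit3.

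As background, kinases such as GCN2, which senses uncharged tRNA, and PERK, which senses unfolded protein in the endoplasmic reticulum, phosphorylate eIF2 alpha. That lowers general translation but raises translation of the Atf4 messenger, whose upstream reading frames normally hold it back. ATF4 protein then binds composite C/EBP-ATF sites and switches on genes for making, importing and charging amino acids, so that its activity is controlled largely at the protein level. In proliferating cells mTORC1 is also known to drive this programme.

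Kidney libraries came from C57BL/6 mice in 4 groups of 2. The Pkd1 controls carried a floxed Pkd1 gene with no Cre (KSP/Cre-;Pkd1f/f) and the Pkd1 knockouts the same gene with KSP/Cre, in which kidney-specific cadherin sequences drive Cre, and both were taken at postnatal day 10. The Pkd2 controls (Pkhd1/Cre-;Pkd2f/f) and Pkd2 knockouts (Pkhd1/Cre+;Pkd2f/f), whose Cre is driven by the Pkhd1 promoter, were taken at postnatal day 20. Both promoters act in tubule epithelium, so a kidney of either knockout keeps many cells without the deletion, and the models differ in gene, Cre and age at once. The mIMCD-3 cells, a line from mouse inner medullary collecting duct, were transfected with 10 nM of a gapmer, an antisense oligonucleotide that recruits RNase H, that targets Hoxb3os, a long noncoding RNA (3 libraries), or with a control gapmer (2 libraries) and harvested after 48 h. Nothing in the labels tells if replicates are separate animals or separate cultures, and p-values cover only the spread among these libraries, which may be technical.

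Promoter windows are shown first because a C/EBP-ATF core was found near the start of some members, of which only Asns was called higher in Pkd1 knockouts by the main test described below. Windows of 300 bases (250 before to 50 after the start site) were taken from RefSeq, build GRCm38.p6, for 9 of the 10 members, all but Slc7a5. They were searched on both strands for TGATGNAA, whose reverse complement is TTNCATCA. The core was found in 3 members, Asns, Chac1 and Trib3, and in 4.51% of 27025 genes with RefSeq windows of the same length (3.97% of 32851 windows). Psat1, which was called higher, had no match. The stricter TGATGCAA, which the first motif includes, was found in 1 member, Chac1, and in 1.03% of genes (0.895% of windows). The 3 windows, 5′ to 3′ on the strand of the gene with the core in capitals, lie at chr6:7693160-7693459 on the minus strand (Asns), chr2:119350992-119351291 on the plus strand (Chac1) and chr2:152344011-152344310 on the minus strand (Trib3).
Asns: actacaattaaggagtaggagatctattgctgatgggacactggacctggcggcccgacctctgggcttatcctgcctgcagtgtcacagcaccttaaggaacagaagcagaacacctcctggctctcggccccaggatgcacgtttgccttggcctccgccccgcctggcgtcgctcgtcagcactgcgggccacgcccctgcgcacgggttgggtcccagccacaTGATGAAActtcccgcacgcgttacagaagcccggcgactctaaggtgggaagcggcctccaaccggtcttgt
Chac1: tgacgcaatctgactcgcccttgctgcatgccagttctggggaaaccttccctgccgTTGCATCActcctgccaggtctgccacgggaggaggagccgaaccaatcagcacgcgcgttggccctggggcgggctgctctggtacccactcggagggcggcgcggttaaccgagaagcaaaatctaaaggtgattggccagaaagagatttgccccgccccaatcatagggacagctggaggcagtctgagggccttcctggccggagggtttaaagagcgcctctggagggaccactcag
Trib3: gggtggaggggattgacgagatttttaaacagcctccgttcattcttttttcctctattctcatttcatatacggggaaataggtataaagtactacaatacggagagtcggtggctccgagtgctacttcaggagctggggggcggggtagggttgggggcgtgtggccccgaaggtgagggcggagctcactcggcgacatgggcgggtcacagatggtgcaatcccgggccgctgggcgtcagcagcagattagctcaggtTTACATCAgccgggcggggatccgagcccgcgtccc
In Asns the match begins 23 bases before the RefSeq start site, reads along the gene and lies in a 5′ UTR exon of an Asns transcript that GENCODE starts further upstream (chr6:7693225-7693232). In Chac1 it begins 193 bases before the start, on the opposite strand (chr2:119351049-119351056), and in Trib3 it begins 14 bases after the start, also on the opposite strand (chr2:152344039-152344046). GENCODE annotates no gene at the matches of Chac1 and Trib3. A match is a description of the letters, and ATF4 binding was not measured.

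Kidney values are reads times a constant per library, and the reads behind them came to 30.7 to 94.4 M per library. Pkd1 read 31.1 and 22.7 in its controls and 24.1 and 26.0 in its knockouts, and Pkd2 read 69.0 and 61.2 in its controls and 50.7 and 53.3 in its knockouts, neither with a call. Whole-gene values include exons outside the floxed part, so they do not check the deletion, and Hoxb3os is not among the listed cell genes, so its knockdown was not checked here. Libraries of one group differed in Xist (0.221 and 416 in the Pkd1 controls, 1.74 and 449 in the Pkd2 knockouts). Summed Y-linked values were 155 and 10.4 in Pkd1 controls and 149 and 183 in their knockouts. In the Pkd2 model they were 0.104 and 0.0221 in controls and 169 and 0.0462 in knockouts. Sex and genotype thus cannot be fully told apart in either model. With a Y-linked covariate 4 members were called in the Pkd1 model and 3 in the Pkd2 model, as many as without it. Calls over all tested genes meanwhile went from 1550 to 2491 in the Pkd1 model and from 2587 to 3658 in the Pkd2 model. Between the controls 1 member was called in place of 3, and over all tested genes 1077 in place of 1801. Summed markers of several cell types differed between genotypes, while those of endothelium and of principal cells overlapped in both models. The summed level of 10 proximal tubule markers, none at 0, was 2276 to 2443 in Pkd1 controls against 675 to 808 in Pkd1 knockouts, and 3583 to 4465 against 1166 to 1869 in the Pkd2 model. Sums of 6 macrophage markers, none at 0, were 32.2 to 36.9 against 98.5 to 99.2 in the Pkd1 model and 36.2 to 37.1 against 145 to 169 in the Pkd2 model. In the same order, controls against knockouts of the Pkd1 and then the Pkd2 model, summed thick ascending limb markers were 830 to 1039 against 285 to 461 and 4113 to 4132 against 798 to 948, and those of tubule injury 666 to 924 against 962 to 2445 and 1206 to 1226 against 7812 to 10210. Myofibroblast sums were 533 to 799 against 1587 to 1814 and 365 to 436 against 814 to 827, and dividing cell sums were 129 to 134 against 170 to 217 and 30.2 to 35.0 against 77.6 to 122. The share of values from mitochondrially encoded genes was 27.4% and 38.7% in Pkd1 controls, 22.05% and 22.5% in their knockouts, 41.4% and 41.3% in Pkd2 controls and 34.7% and 30.1% in theirs. In such bulk samples, fewer cells of a type and less RNA per cell cannot be told apart, and the part of cell makeup in the results below was not tested.

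In Pkd1 knockout kidneys the enzymes Asns and Psat1 and the transporter subunit Slc7a5 rose, while Slc3a2, the partner chain of Slc7a5, fell. A gene was called when limma's Benjamini-Hochberg adjusted p over all 14637 tested genes was below 0.05, and changes are differences of log2(value + 1) ± SE, a scale that shrinks the change of low genes. By that rule 3 of 9 tested members rose and 1 fell, where 5.11% of all tested genes rose and 5.48% fell. The median change of the 9 was 0.43, against -0.0021 over all tested genes. Values of 7 of the 9 did not overlap between the groups (6 higher and 1 lower), and 58.3% of all tested genes had groups that did not overlap.

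**Figure D1:**
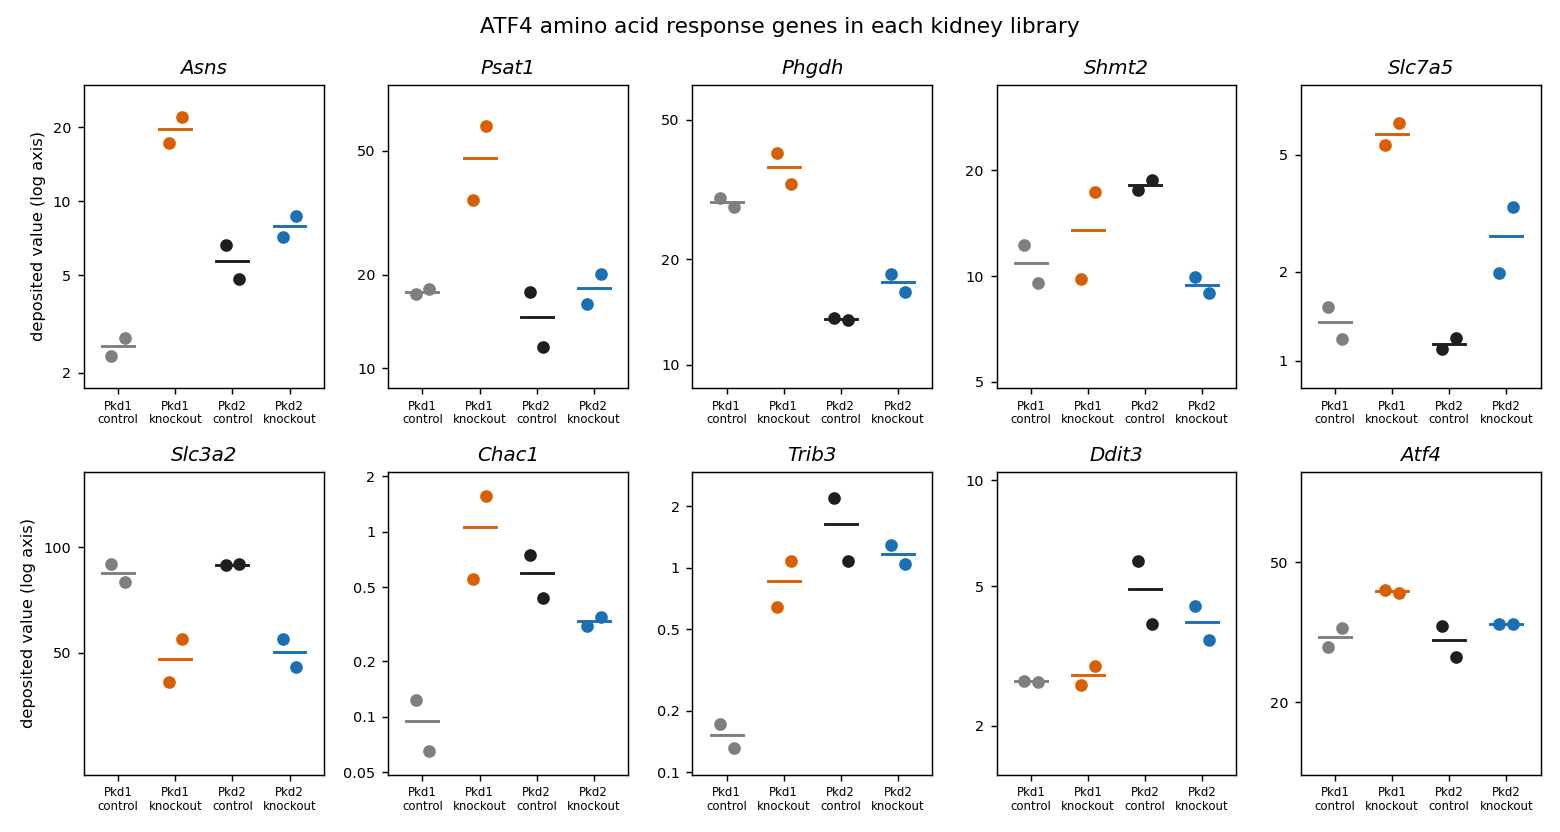
Deposited value of each of the 10 genes (log axis, a scale of its own per panel) in the 8 kidney libraries. Points are libraries and lines are group means. Asns stands at 17.3 and 22.03 in the Pkd1 knockouts, above the other 6 libraries, while Slc3a2 is below its controls in all 4 knockout libraries.

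Asns (ENSMUSG00000029752.10, chr6:7675169-7693254, minus strand) makes asparagine from aspartate and glutamine. Its value was 2.35 and 2.78 without Cre and rose to 17.3 and 22.03 in the Pkd1 knockouts. Each knockout library was thus far above each control library, and the ratio of the group means was 7.67. The change was 2.53 ± 0.21 (limma adjusted p = 0.000728), and all 17 alternative settings kept the call, with adjusted p up to 0.0171.

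Of the member enzymes of serine synthesis and its link to folate, Psat1 alone was called. Psat1 (ENSMUSG00000024640.7, chr19:15904678-15947337), the transaminase of serine synthesis, read 17.3 and 18.0 in Pkd1 controls and 34.6 and 60.3 in Pkd1 knockouts. Its knockout libraries lay apart from each other but above both controls, and the change was 1.33 ± 0.28 (limma adjusted p = 0.0210). That call was lost without Pkd1 control replicate 1 (limma adjusted p = 0.128), without Pkd1 control replicate 2 (0.0992), without Pkd1 knockout replicate 2 (0.0946), with no filter (0.0759) and with mitochondrially encoded genes left out (0.0544). Phgdh (ENSMUSG00000053398.9, chr3:98313170-98339990), which catalyses the first step of that pathway, read 29.9 and 28.2 against 40.2 and 32.9. The groups did not overlap, but the change of 0.31 ± 0.16 was not called (limma adjusted p = 0.258). Phgdh values are less certain, because 19 other annotated genes hold a stretch of at least 200 bases at 90% identity or more, 6 of them in the kidney table, with values up to 4.59. Shmt2 (ENSMUSG00000025403.4, chr10:127517123-127522444), the mitochondrial enzyme that passes the serine carbon to folate, read 12.3 and 9.53 in controls and 9.85 and 17.3 in knockouts. Those groups overlapped, and the change was 0.25 ± 0.25 (limma adjusted p = 0.556).

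The transporter subunits went opposite ways. Slc7a5 (LAT1, ENSMUSG00000040010.10), the light chain that carries large neutral amino acids such as leucine, read 1.52 and 1.18 in Pkd1 controls and 5.38 and 6.39 in Pkd1 knockouts, with no overlap. The change was 1.55 ± 0.21 (limma adjusted p = 0.00423) and the ratio of the group means 4.36, and the call held in all 17 alternatives. Slc7a5 lies wholly inside Gm20388, a gene on the opposite strand with values up to 30.4, and since the strand setting of the counting is not given, reads of the pair may not be told apart. Slc3a2 (CD98 heavy chain, ENSMUSG00000010095.11, chr19:8706882-8723369) brings LAT1 and several other light chains to the membrane. It read 89.4 and 79.5 in Pkd1 controls and 41.2 and 54.7 in Pkd1 knockouts, so each knockout was below each control. The change was -0.82 ± 0.19 (limma adjusted p = 0.0309), while the authors' deposited adjusted p was 0.18. The limma call was lost in 8 of 17 alternatives. Among them were leaving out Pkd1 control replicate 1 (0.171) or 2 (0.0957), Pkd1 knockout replicate 1 (0.182) or either Pkd2 control (0.0665 each), and leaving out mitochondrially encoded genes (0.291). Slc3a2 fell beside the proximal tubule markers given above, and the part of those cells in its fall was not tested.

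Of the stress effectors, Chac1 and Trib3 were low in level and Ddit3 was flat. The authors' deposited adjusted p in the Pkd1 model was 1.1e-08 for Chac1 and 2.8e-05 for Trib3. Chac1 (ENSMUSG00000027313.3, chr2:119351229-119354381), which degrades glutathione, read 0.123 and 0.0656 in Pkd1 controls and 0.556 and 1.57 in Pkd1 knockouts, from 15, 3, 32 and 74 reads. The knockout mean was 11.2 times the control mean. Outside the main test, its change was called by DESeq2 (3.45 ± 0.79, adjusted p = 0.00031) and edgeR (3.34, adjusted p = 0.0145) on recovered reads, but not by limma without a filter (0.87 ± 0.22, adjusted p = 0.104). Trib3 (ENSMUSG00000032715.9, chr2:152337422-152344032), a pseudokinase that curbs AKT and ATF4, read 0.172 and 0.131 in controls and 0.643 and 1.08 in knockouts, from 21, 6, 37 and 51 reads. Its knockout mean was 5.67 times the control mean with no overlap, but the change on the log2(value + 1) scale was 0.68 ± 0.23 and not called (limma adjusted p = 0.0930). With a pseudocount of 0.1 the change was 1.90 and called (limma adjusted p = 0.0261), as it was by DESeq2 (2.50, adjusted p = 0.00108), edgeR (2.44, adjusted p = 0.0201) and limma on the Pkd1 model alone (0.68, adjusted p = 0.0477). Ddit3 (CHOP, ENSMUSG00000025408.13, chr10:127290774-127296288), the transcription factor linked to death under unresolved stress, read 2.68 and 2.67 in controls and 2.60 and 2.96 in knockouts. These overlapped, and the change was 0.04 ± 0.21 (limma adjusted p = 0.919).

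Atf4 (ENSMUSG00000042406.7, chr15:80255184-80257540) read 28.7 and 32.6 in Pkd1 controls and 41.8 and 41.0 in Pkd1 knockouts. Both knockout libraries were above both controls, but the change of 0.43 ± 0.16 was not called (limma adjusted p = 0.136) in any of the 17 alternatives. RNA levels say nothing of the amount of ATF4 protein.

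In Pkd2 knockout kidneys 1 of 9 tested members rose and 2 fell, where 9.54% of all tested genes rose and 8.13% fell. The median change of the 9 was 0.16, against -0.0082 over all tested genes. Groups did not overlap for 6 of the 9 (4 higher and 2 lower), and for 62.7% of all tested genes. With mitochondrially encoded genes left out of the scaling, the median of all genes moved to 0.26, called genes went from 54.0% to 79.3% higher, and no member was called.

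Slc7a5 read 1.09 and 1.19 in Pkd2 controls and 1.99 and 3.33 in Pkd2 knockouts. Each knockout was above each control, and the change was 0.75 ± 0.21 (limma adjusted p = 0.0419), with a call in 5 of 17 alternatives and adjusted p up to 0.211, that without Pkd2 knockout replicate 2. Slc3a2 read 88.7 and 89.5 in controls and 54.8 and 45.6 in knockouts, a fall of like size to that in the Pkd1 model (-0.82 ± 0.19, limma adjusted p = 0.0208). Its call held in 12 of 17 alternatives, with limma adjusted p up to 0.416. It was lost without Pkd2 control replicate 1 or 2 and without Pkd2 knockout replicate 2. The call also ended with replicate number as a block and with mitochondrially encoded genes left out. Shmt2 read 17.6 and 18.8 in controls and 9.95 and 8.97 in knockouts. Here the knockouts were below the controls and the change was -0.87 ± 0.25 (limma adjusted p = 0.0430), with a call in 7 of 17 alternatives and adjusted p up to 0.374. In the Pkd2 model the authors' deposited adjusted p was 0.027 for Slc7a5, 0.15 for Slc3a2 and 0.088 for Shmt2. Leaving out any one of 6 libraries ended the Shmt2 call, with limma adjusted p from 0.0515 without Pkd2 knockout replicate 1 to 0.210 without Pkd2 control replicate 2, and the others were Pkd2 control replicate 1 (0.147), Pkd2 knockout replicate 2 (0.171) and Pkd1 control replicates 1 (0.0620) and 2 (0.0621). The Slc7a5 call ended without any one of 7 libraries, all but Pkd2 knockout replicate 1, with limma adjusted p of at least 0.0513.

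The other 6 tested members had no call in the Pkd2 model. Asns read 6.65 and 4.81 in Pkd2 controls and 7.15 and 8.69 in Pkd2 knockouts, groups that did not overlap, with a change of 0.41 ± 0.21 (limma adjusted p = 0.206). Psat1 read 17.5 and 11.7 against 16.1 and 20.1, with overlap, and a change of 0.31 ± 0.28 (limma adjusted p = 0.482). Phgdh read 13.6 and 13.4 against 18.2 and 16.2, without overlap, and a change of 0.32 ± 0.16 (limma adjusted p = 0.211). The changes of Atf4 (0.16 ± 0.16), Ddit3 (-0.24 ± 0.21) and Trib3 (-0.25 ± 0.23) were each close to their SE. Chac1, outside the test, read 0.754 and 0.441 in Pkd2 controls and 0.308 and 0.347 in Pkd2 knockouts, each knockout below each control.

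**Figure D2:**
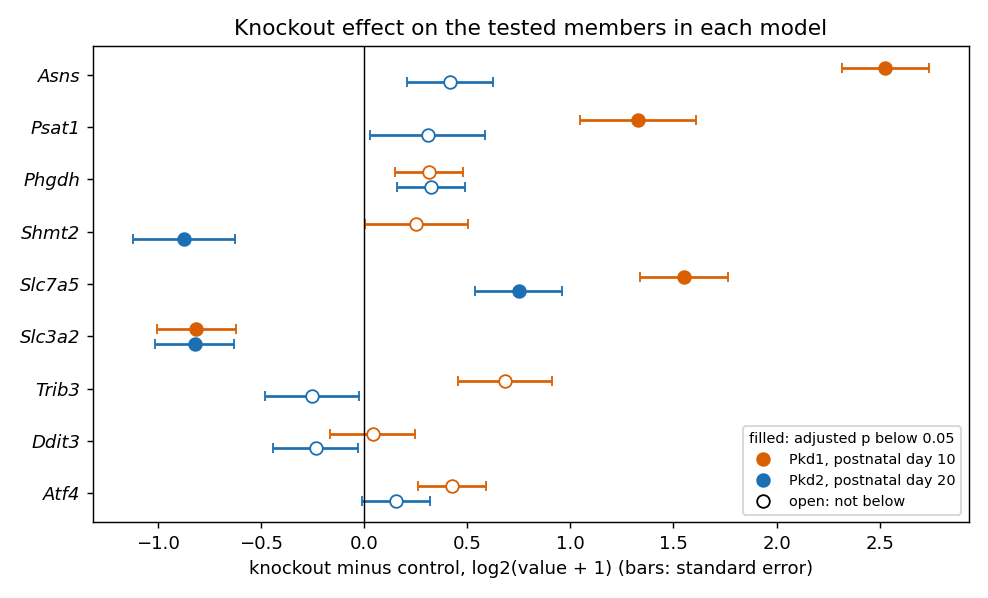
Knockout minus control on the log2(value + 1) scale for the 9 tested members in the Pkd1 and Pkd2 models, with bars for the standard error and filled points for limma adjusted p below 0.05. Asns is at 2.53 in the Pkd1 model and 0.41 in the Pkd2 model, and Slc3a2 is at -0.82 in both.

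The difference between the models was tested as its own contrast, the Pkd1 effect minus the Pkd2 effect. limma called none of the 9 members, against 0.00683% of all tested genes (1 of 14637), and edgeR called none of them. DESeq2 called Asns and Trib3, and also Chac1, which is not among the 9. At an unadjusted p below 0.05 the difference was above 0 for 5 of the 9 members, and for 3% of all tested genes. The difference for Asns was 2.11 ± 0.30 (limma adjusted p = 0.0655), with DESeq2 adjusted p = 5.89e-06 and edgeR adjusted p = 0.0803. Those for Shmt2 (1.13 ± 0.35), Psat1 (1.02 ± 0.40), Trib3 (0.93 ± 0.32) and Slc7a5 (0.80 ± 0.30) had limma adjusted p from 0.372 to 0.505, and DESeq2 called Trib3 (adjusted p = 0.0406). For Shmt2 the difference came with a called fall in the Pkd2 model and a change of 0.25 ± 0.25 in the Pkd1 model. The main test thus shows no member's response to differ between the models, and since age, Cre and gene differ together their parts cannot be told apart.

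Controls of the 2 models also differed in some members, a contrast that shares its libraries with the knockout comparisons. In the day 20 Pkd2 controls against the day 10 Pkd1 controls, 2 of 9 members were higher and 1 lower, where 5.04% of all tested genes were higher and 7.26% lower. Asns was higher by 0.91 ± 0.21 (limma adjusted p = 0.0245) and Trib3 by 1.16 ± 0.23 (limma adjusted p = 0.0131), with Trib3 at 2.18 and 1.08 in the older controls. Phgdh was lower, with a change of -1.05 ± 0.16 (limma adjusted p = 0.00562). The calls of these genes ended without single control libraries: for Asns without any of the 4 (limma adjusted p 0.0598 to 0.201), for Trib3 without 3 of them (0.0768 to 0.0989) and for Phgdh without 3 of them (0.0536 to 0.0542). With a Y-linked covariate the Asns and Trib3 calls ended (limma adjusted p = 0.15 and 0.0535) and that of Phgdh held (0.0411). Of 16 alternatives, 8 kept the call of Asns, 12 that of Trib3 and 13 that of Phgdh. For Asns the limma adjusted p went up to 0.289. Xist was 346 and 350 in the Pkd2 controls, against 0.221 and 416 in the Pkd1 controls, so that age, floxed line and, in part, sex cannot be told apart.

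Across the 4 kidney groups the order of the levels was not shared. Asns ran from the Pkd1 knockout (19.6 ± 3.37, SD, n = 2 in each group) over the Pkd2 knockout (7.92 ± 1.09) and the Pkd2 control (5.73 ± 1.304) to the Pkd1 control (2.56 ± 0.305), and no neighbours overlapped. Slc7a5 had the same first places, with overlap only between the 2 control groups. Slc3a2 had both controls on top, overlapping each other, and both knockouts below, overlapping each other. Phgdh sorted by model first, with 36.6 ± 5.22 and 29.1 ± 1.17 in the Pkd1 knockout and control and 17.2 ± 1.45 and 13.5 ± 0.148 in those of the Pkd2 model. Trib3 was lowest in the Pkd1 control, and the other 3 groups overlapped in a chain.

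Per kb of the longest coding transcript, Slc3a2 had the highest level of the 10 in Pkd1 controls (30.03 ± 2.47 per kb, SD, n = 2) and Chac1 the lowest (0.0576 ± 0.0248), overlapping Trib3. In Pkd1 knockouts Atf4 came first (24.0 ± 0.329 per kb), and Phgdh, Psat1 and Slc3a2 followed with overlapping levels. Asns moved from place 7 to place 5 in that order, at 1.27 ± 0.151 and 9.75 ± 1.67 per kb.

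Asns and the other members were also set beside all kidney genes for likeness of pattern. Over the 8 kidney libraries, Pearson's r of log2(value + 1) with Asns was 0.89 for Slc7a5, 0.85 for Atf4, 0.81 for Psat1, 0.46 for Trib3, 0.29 for Phgdh, 0.10 for Shmt2, -0.03 for Ddit3 and -0.76 for Slc3a2. These 8 libraries share 4 groups, so r mostly follows group means, and it is given as a description. Among other named genes with a mean value of at least 5, the nearest to Asns were Fkbp5 (0.976), Scel (0.975), Sec23a (0.973) and Lurap1 (0.965). The nearest to the mean of the 9 scaled members were Bdnf and Aspn (0.928 each), Arhgef5 (0.927) and Gtf3a (0.926).

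In mIMCD-3 cells all 8 listed members were higher with the Hoxb3os gapmer than with the control gapmer, in each of the 3 libraries against each of the 2 controls. The share of all listed genes with groups as separate was not counted, so the separation is only a description. The table is the authors' selection by adjusted p, and 44.4% of its genes are higher with the Hoxb3os gapmer, so that a count of calls within it carries little. The fit is limma on the 2016 listed genes alone, and it called 2015 of them. All 8 members were called in it and in each of 10 alternatives. Changes ran from 0.17 to 0.66 with a median of 0.31, against -0.14 over all listed genes. Values in the 2 tables are on separate scales and no test was made across them.

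**Figure D3:**
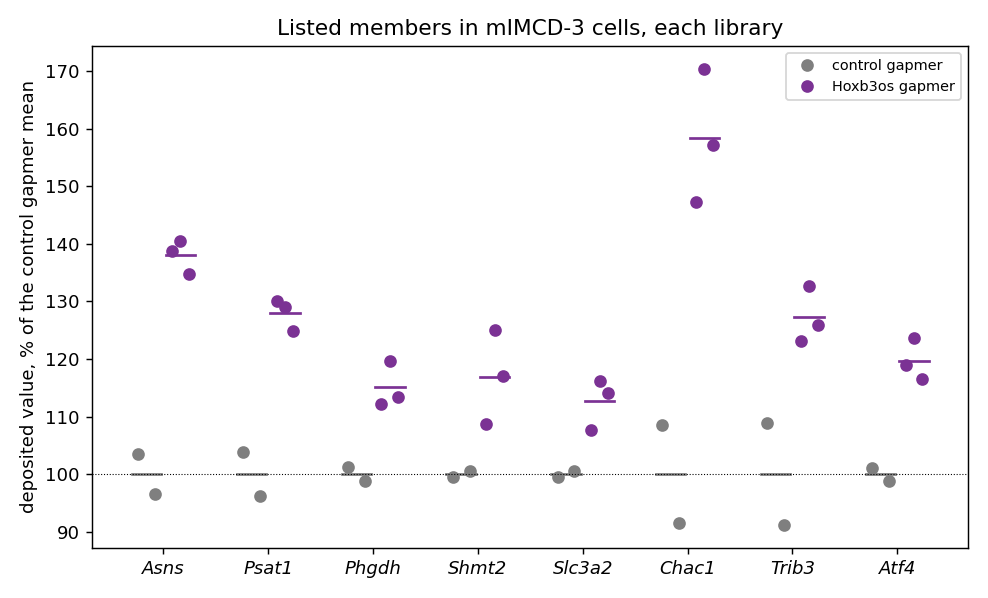
Value of the 8 listed genes in each mIMCD-3 library as a percentage of the control gapmer mean (dotted line at 100). Points are libraries and short lines group means. Every Hoxb3os gapmer point is above both control points of its gene, and the share of all listed genes with such separation was not counted.

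Chac1 had the largest change of the 8, with 268 and 226 in controls and 364, 422 and 389 with the Hoxb3os gapmer (58.3% higher, 0.66 ± 0.10, limma adjusted p = 1.21e-06). Asns read 2992 and 2792 against 4014, 4062 and 3900 (38.0% higher, 0.47 ± 0.05, limma adjusted p = 1.90e-10). Psat1 read 8187 and 7587 against 10259, 10179 and 9846 (28.0% higher, 0.36 ± 0.04, limma adjusted p = 9.06e-09). In all 3 the libraries of a group lay closer to each other than to the other group. Trib3 was 27.3% higher, at 559 and 469 against 633, 682 and 647 (0.35 ± 0.08, limma adjusted p = 0.000321). Atf4 was 19.7% higher, at 10483 and 10251 against 12333, 12823 and 12077 (0.26 ± 0.04, limma adjusted p = 2.31e-06). The remaining members moved least: Shmt2 by 16.9%, Phgdh by 15.1% and Slc3a2 by 12.7%, which here rose and did not fall. By the log2 fold change in the authors' deposited table, Chac1 was number 26 and Asns number 28 of 2016 listed genes.

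Among the lists of other genes of the response, the amino acid carriers had the highest median change in Pkd1 knockouts. Of 12, 7 rose, 2 fell and 3 were not called, where 5.11% of all tested genes rose and 5.48% fell. The median change was 0.85, against -0.0021 over all tested genes. Slc7a1 and Slc7a3, carriers of cationic amino acids, rose by 1.84 ± 0.24 (limma adjusted p = 0.00374) and 1.38 ± 0.16 (0.00237), and Slc7a6, a partner of Slc3a2, by 1.41 ± 0.20 (0.00449). Slc7a8, another partner of Slc3a2 and known from proximal tubule, fell by 1.79 (± 0.25, limma adjusted p = 0.00447). Slc7a1 stood at 9.75 and 7.74 in Pkd1 controls and 33.3 and 33.9 in knockouts. These 4 calls held in all 17 alternatives. In Pkd2 knockouts, 2 carriers rose, Slc7a1 (1.29 ± 0.24, limma adjusted p = 0.00889) and Slc7a6 (0.66 ± 0.20, 0.0497), and Slc7a8 fell (-1.47 ± 0.25, 0.00585). The remaining 9 were not called there, where 9.54% of all tested genes rose and 8.13% fell. The Slc7a6 call held in 3 of 17 alternatives.

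Further enzymes of serine, glycine and folate carbon moved both ways. In Pkd1 knockouts 2 of 10 rose and 2 fell, where 5.11% of all tested genes rose and 5.48% fell. Mthfd2 (1.31 ± 0.20, limma adjusted p = 0.00608) and Aldh1l2 (1.40 ± 0.37, 0.0456), both mitochondrial, rose. The cytosolic Mthfd1 (-0.99 ± 0.17, limma adjusted p = 0.00840) and Aldh1l1 (-1.01 ± 0.25, 0.0364) fell. The other 6, the mitochondrial Gldc among them, were not called. Of 17 alternatives, 16 kept the call of Mthfd2, 10 that of Aldh1l2, 13 that of Mthfd1 and 9 that of Aldh1l1. With mitochondrially encoded genes left out, those of Mthfd1 and Aldh1l1 ended (limma adjusted p = 0.136 and 0.19). In Pkd2 knockouts none of the 10 rose and 4 fell: Mthfd1, Shmt1, Aldh1l1 and Gldc, with changes of -1.12, -1.29, -1.24 and -1.34, where 8.13% of all tested genes fell. With mitochondrially encoded genes left out of the scaling, the calls of Mthfd1, Shmt1 and Aldh1l1 ended (limma adjusted p = 0.168, 0.0702 and 0.157) and that of Gldc held (0.0441). Gldc, the glycine cleavage enzyme, is mitochondrial and was 3.19 ± 0.32 higher in day 20 than in day 10 controls (limma adjusted p = 0.00101). List medians were 0.19 in the Pkd1 and -0.65 in the Pkd2 model. The named falls stand beside the lower proximal tubule marker sums given above, and the part of those cells was not tested.

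Among 11 tested enzymes of other amino acids, 2 rose and 2 fell in Pkd1 knockouts, with a median of -0.36. Over all tested genes 5.11% rose and 5.48% fell there. Aldh18a1, which starts proline synthesis, rose by 1.40 ± 0.21 (limma adjusted p = 0.00594). Ass1, of arginine synthesis, fell by 2.11 (± 0.30, limma adjusted p = 0.00477) and Cth, of cysteine synthesis, by 1.03 (± 0.25, 0.0353). The Cth call held in 9 of 17 alternatives and ended with mitochondrially encoded genes left out (limma adjusted p = 0.1). In Pkd2 knockouts Aldh18a1 rose by 1.46 ± 0.21 (limma adjusted p = 0.00340), with values of 5.56 and 4.70 in controls against 12.7 and 19.7, and 6 of the 11 fell, where 8.13% of all tested genes did. Got1, Cth and Cbs were among those, with changes of -1.08, -1.27 and -1.63. The calls of Got1 and Cth ended with mitochondrially encoded genes left out (limma adjusted p = 0.180 and 0.0820), and that of Cbs held (0.0246).

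The cytosolic tRNA synthetases, which charge tRNA with amino acids, had 3 of 20 called higher in Pkd1 knockouts (Gars 0.92 ± 0.19, Cars 0.78 ± 0.20 and Iars 0.60 ± 0.16) and 1 in Pkd2 knockouts (Lars 0.73 ± 0.16), with none lower, where 5.11% and 9.54% of all tested genes rose. Of 17 alternatives, 11 kept the call of Gars, 8 that of Cars, 5 that of Iars and 11 that of Lars. Of 15 tested stress targets of ATF4, 5 rose in Pkd1 knockouts and none fell, with a median of 0.44, where 5.11% of all tested genes rose and 5.48% fell. Ppp1r15a, the phosphatase subunit that reverses eIF2 alpha phosphorylation, rose by 1.39 ± 0.30 (limma adjusted p = 0.0242), Atf3 by 1.53 ± 0.36 (0.0315), Eif4ebp1 by 0.88 ± 0.21 (0.0301) and Stc2 by 0.80 ± 0.20 (0.0422). Those calls held in 12, 11, 10 and 6 of 17 alternatives. In Pkd2 knockouts 1 of the 15 rose and 2 fell, with a median of 0.0082, where 9.54% of all tested genes rose and 8.13% fell. Atf3 rose (2.37 ± 0.36, limma adjusted p = 0.00401), and Herpud1 (-1.42 ± 0.30, 0.0145) and Atf5 (-1.37 ± 0.39, 0.0441) fell. Of 17 alternatives, 17 kept the call of Atf3, 13 that of Herpud1 and 8 that of Atf5. With mitochondrially encoded genes left out, the calls of Herpud1 and Atf5 ended (limma adjusted p = 0.0612 and 0.0506). Atf3 is also an immediate early gene that many stimuli raise. Of 8 genes for the eIF2 alpha kinases and their control, none was called in Pkd1 knockouts, where 5.11% of all tested genes rose and 5.48% fell. In Pkd2 knockouts 1 rose, where 9.54% of all tested genes did. It was Eif2ak2, the interferon-induced kinase PKR (0.77 ± 0.20, limma adjusted p = 0.0324). The Eif2ak2 call held in 10 of 17 alternatives and ended with mitochondrially encoded genes left out (limma adjusted p = 0.0601).

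Over all tested genes 5.11% rose and 5.48% fell in Pkd1 knockouts, and 9.54% rose and 8.13% fell in Pkd2 knockouts. None of 14 endoplasmic reticulum stress genes of the ATF6 and XBP1 arms was called by limma in either model, with medians of 0.14 and 0.09. Those with the smallest p, Edem1 and Xbp1, had changes of 0.53 ± 0.18 and 0.54 ± 0.19 in the Pkd1 model (limma adjusted p = 0.0943 and 0.114). Of the 19 named list genes called in the Pkd1 model 4 kept the call in every alternative, and of the 16 in the Pkd2 model 2 did, Aldh18a1 and Atf3. For the difference between the models limma called no gene of the 7 lists, edgeR called none, and DESeq2 called Gldc, Herpud1 and Atf5 (adjusted p = 0.0354, 0.0150 and 0.0446). Over all genes limma called 1, edgeR 5 and DESeq2 179 there.

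**Figure D4:**
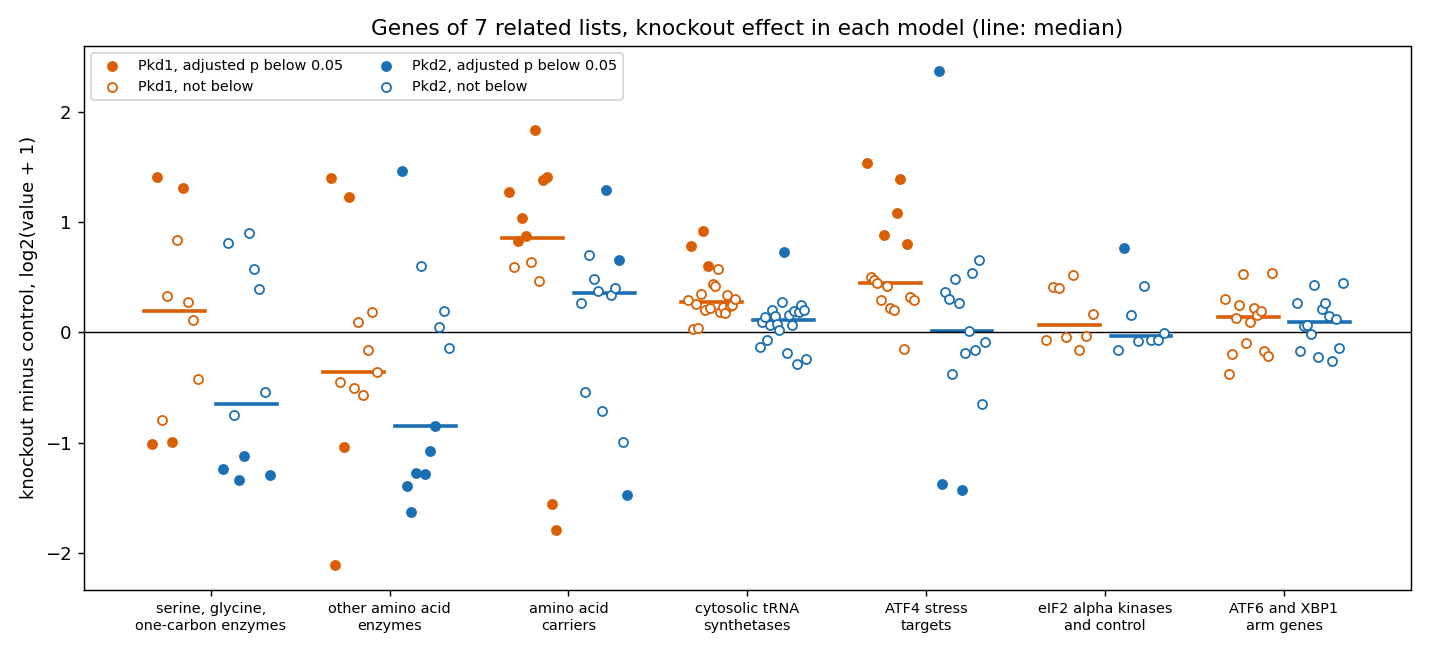
Knockout minus control on the log2(value + 1) scale for each tested gene of the 7 lists in the Pkd1 and Pkd2 models. Filled points have limma adjusted p below 0.05, open points do not, and lines are list medians, which stand at 0.85 and 0.36 for the amino acid carriers.

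In the cells 14 of the 20 tRNA synthetases were listed, and all 14 were higher with the Hoxb3os gapmer, with changes of 0.13 to 0.34. Cars, for cysteine, had the largest (0.34 ± 0.05). The listed carriers Slc1a4 (0.65 ± 0.07) and Slc7a1 (0.25 ± 0.05) were higher, as were Mthfd2 (0.36 ± 0.05), Psph (0.21 ± 0.07), Pycr1 (0.47 ± 0.10), Cbs (0.35 ± 0.06), Aldh18a1 (0.33 ± 0.05) and Gpt2 (0.31 ± 0.07). Of 7 listed stress targets 6 were higher, among them Atf3 (0.39 ± 0.08) and Gdf15 (0.38 ± 0.07), while Stc2 was lower (-0.34 ± 0.08), the opposite sign to its change in Pkd1 kidneys. Of 6 listed genes of the ATF6 and XBP1 arms, 5 were higher, among them Hyou1 (0.16 ± 0.05), Hspa5 (0.15 ± 0.05) and Pdia4 (0.15 ± 0.04), and Ern1, the sensor kinase IRE1 alpha, was lower (-0.40 ± 0.06, limma adjusted p = 1.16e-07). Since listing itself required a small adjusted p in the authors' deposited table, these counts are not tests of the lists.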

How the data were processed

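RNA was extracted with Trizol and made into TruSeq libraries, per the labels' protocols. Per the submitters' processing notes, kidney reads met RSEM 1.2.22, STAR 2.4.2a, edgeR, FastQC 0.11.2 and Cufflinks 2.2.1, and cell reads DESeq2 1.12.3, STAR 2.4.2a, SAMtools 1.0 and Trimmomatic 0.32 (build mm10). Annotation, strand setting and the role of each tool: not given in the sources used here. Titles of the Pkd2 knockouts carry "(WT)", but the genotype lists Cre, and they were grouped as knockouts.

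As deposited, kidney values are a signal per gene, estimated reads times a constant per library, and 93.8% to 96.2% of values came out whole within 0.02 of a read. Those of the cells, as deposited, are likewise a signal, reads divided by a size factor, for 2016 genes whose largest adjusted p is 0.0500. The authors' log2 fold changes run control minus knockout for kidneys and Hoxb3os minus control gapmer for cells, and their deposited p-values are adjusted ones. The reads on the listed cell genes came to 7.47 to 14.4 M per library, which is part of each library's depth.

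limma 3.58.1 (trend, R 4.3.3) was run on log2(value + 1), with 1 fit of 4 kidney groups (4 residual degrees of freedom) and 1 of the cells (3). Alternatives, with DESeq2 1.42.0 and, chosen after the data were seen, edgeR 4.0.16 on recovered reads, are in the closing section. The fits were tested on simulated data. The members and gene lists were chosen with earlier results of these data known. Named beside the members were up to 4 called genes of each list with the smallest adjusted p, or 2 with the smallest p where none was called. The values of 1 such gene are not reported here. Genes at least 200 bases alike at 90% identity were found with blastn in GENCODE vM21, which also gave coordinates (GRCm38).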

Additional observations from a re-analysis of the deposited data

Results flagged for a closer look

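Chac1 moved in opposite directions in the models, and the difference could not be tested by the main fit because the gene is below its filter. Both Pkd1 knockouts were above both Pkd1 controls, with a ratio of means of 11.2, and both Pkd2 knockouts were below both Pkd2 controls, with a ratio of 0.548. These rest on 3 to 74 reads per library. Outside the main test, the Pkd1 effect minus the Pkd2 effect was 4.29 ± 1.10 by DESeq2 (adjusted p = 0.0161), 4.21 by edgeR (adjusted p = 0.166) and 1.13 ± 0.32 by limma without a filter (adjusted p = 0.397). The fall in Pkd2 knockouts was called by none of these.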

How the results depend on the processing

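Depth limits Chac1 and Trib3, with 3 to 84 reads per kidney library, and 2 libraries per group limit every kidney call. All 8 cell members kept direction and call in each alternative, but limma called 2015 of the 2016 listed cell genes in the main fit. Those genes were selected by adjusted p, so the repeated calls carry little. In Pkd1 kidneys, 4 members were called, 2 with no filter and 2 with mitochondrially encoded genes left out, and 2 to 4 without single libraries. Over all genes limma called 1550 there, and the totals were 790 with no filter, 724 with mitochondrially encoded genes left out, 2491 with a Y-linked covariate and 332 to 2487 without single libraries. In Pkd2 kidneys, 3 members were called, 1 with no filter, 1 with quantile scaling, 0 with mitochondrially encoded genes left out and 0 to 2 without single libraries. Over all genes it called 2587 there, and the totals were 1366 with that model alone, 1424 with mitochondrially encoded genes left out and 669 to 4328 without single libraries. For the difference between models, DESeq2 called 3 members where limma called 0 (and 0 without any single library). Over all genes, 1 was called, with 5 at a pseudocount of 0.1, 0 with no filter, 8 with quantile scaling, 11 with mitochondrially encoded genes left out, 6 with a Y-linked covariate, 179 by DESeq2, 5 by edgeR and 0 to 50 without single libraries. Between controls, 3 members were called, 1 with a Y-linked covariate and 0 to 4 without single libraries, and over all genes 1801, with totals of 942 with mitochondrially encoded genes left out, 1077 with a Y-linked covariate and 412 to 2571 without single libraries. The cause of these shifts was not tested.

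Labels share replicate numbers but give no reason to pair them, and same-numbered libraries correlated at -0.38 (Pkd1), -0.05 (Pkd2) and -0.10 (cells) in their deviations. With a replicate block, 3 members were called in Pkd1, 0 in Pkd2 and 8 in cells, 0 genes for the difference between models and 846 between controls, where Atf4 turned to 0.073.

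Signs turned in uncalled members and in the uncalled list genes Eif2ak3 and Impact. Leaving out mitochondrially encoded genes gave Ddit3 0.018 in Pkd2, Slc3a2 -0.28, Atf4 -0.017 and Eif2ak3 -0.039 for the difference between models and Slc3a2 -0.13 between controls. Quantile scaling gave Slc3a2 -0.12 and -0.062 in those contrasts. A Y-linked covariate gave Ddit3 -0.018 in Pkd1, Phgdh 0.026 for the difference and Impact -0.038 between controls. Without single libraries, ranges crossed 0 for Shmt2 (-0.12 to 0.63) and Ddit3 (-0.028 to 0.11) in Pkd1, Trib3 (-0.56 to 0.055) and Ddit3 (-0.48 to 0.0097) in Pkd2, Phgdh (-0.15 to 0.13) and Slc3a2 (-0.19 to 0.21) for the difference, and Slc3a2 (-0.0043 to 0.16), Atf4 (-0.18 to 0.11) and Impact (-0.0087 to 0.47) between controls. The promoter core was in 3 members and its stricter form in 1.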
